A study of Mus musculus with 8 samples.

Results

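The genes described here are 5 histone H3K9 methyltransferases (Ehmt1, Ehmt2, Suv39h1, Suv39h2 and Setdb1) and 5 high mobility group (HMG) genes (Hmga1, Hmga2, Hmgb1, Hmgb2 and Hmgb3). Every probe whose gene name in the deposited table is one of these 10 symbols was taken, which gave 18 of the 25697 probes on the array. The cells were RAW264.7, a mouse macrophage line (strain label Balb/c), taken 24 h after transfection with HiPerfect. They received either an siRNA (small interfering RNA) specific for Ypel5 or a scrambled control siRNA, and 4 Illumina bead arrays were read for each. Untransfected cells were not analysed here. The labels name a single siRNA against Ypel5. The descriptions number 4 replicates in each group, but the source names do not match them. By the source names, number 1 covers 3 scrambled arrays and 1 Ypel5 siRNA array, and number 2 covers 1 scrambled array and 3 Ypel5 siRNA arrays. The labels do not say what either number stands for or that arrays came from separate cultures, so n = 4 counts arrays and the spread behind each p-value may be technical. With arrays of a group that share a source-name number averaged, which leaves 2 against 2, limma called 0 of the 11364 probes tested and 1554 had an unadjusted p under 0.05. That fit was added after seeing the data. Hmga2 and Ehmt1 were selected on measured values, since earlier results of the same arrays had their log2 differences among the largest falls after the Ypel5 siRNA. Their differences between the groups are therefore a description, with no interval or p-value here, and any count of calls that takes them in supports nothing. The other 8 genes are relatives of these, taken with the earlier results known.

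Methylation of histone H3 at K9 marks silent chromatin and is bound by heterochromatin protein HP1. Ehmt1 (also called GLP) and Ehmt2 (G9a) form a heterodimer that places monomethyl and dimethyl marks in euchromatin. Suv39h1 and Suv39h2 place the trimethyl mark at pericentric heterochromatin, and Setdb1 silences endogenous retroviruses after recruitment by Trim28. The Hmga proteins bind AT-rich DNA through AT-hooks. The Hmgb proteins bend DNA through HMG boxes, and Hmgb1 also acts as an alarm signal outside the cell, where Tlr2 and Tlr4 are among its receptors.

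The bases upstream of Hmga2, Ehmt1 and Suv39h1 are shown because these are the genes whose arrays did not overlap between the groups. Those of Hmgb2 are shown because its window held the most CCAAT boxes of the 10 genes. The sequences are from RefSeq on GRCm38.p6, run 5′ to 3′ on the gene's strand, and end before the first annotated base of the gene. Capitals mark GGGCGG, the core of the GC box, and CCAAT, each on either strand (CCGCCC and ATTGG). They cover chr10:120476470-120476719 (minus strand) for Hmga2, chr2:24919644-24919859 (minus strand) for Ehmt1, chrX:8074761-8075010 (minus strand) for Suv39h1 and chr8:57511593-57511842 (plus strand) for Hmgb2.
Hmga2: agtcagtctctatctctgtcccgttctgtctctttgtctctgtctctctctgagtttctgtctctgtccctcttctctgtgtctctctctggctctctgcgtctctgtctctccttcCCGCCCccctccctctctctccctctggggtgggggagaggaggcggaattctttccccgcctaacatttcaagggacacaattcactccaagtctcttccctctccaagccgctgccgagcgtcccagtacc
Ehmt1: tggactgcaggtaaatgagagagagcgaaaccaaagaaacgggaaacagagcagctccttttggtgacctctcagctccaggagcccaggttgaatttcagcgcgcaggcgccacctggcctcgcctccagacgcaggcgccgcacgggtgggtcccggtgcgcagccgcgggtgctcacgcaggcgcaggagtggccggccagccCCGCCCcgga
Suv39h1: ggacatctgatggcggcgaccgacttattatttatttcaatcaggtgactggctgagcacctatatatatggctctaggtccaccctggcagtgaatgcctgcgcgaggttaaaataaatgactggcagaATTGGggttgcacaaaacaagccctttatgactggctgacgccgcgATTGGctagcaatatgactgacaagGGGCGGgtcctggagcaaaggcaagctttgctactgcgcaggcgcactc
Hmgb2: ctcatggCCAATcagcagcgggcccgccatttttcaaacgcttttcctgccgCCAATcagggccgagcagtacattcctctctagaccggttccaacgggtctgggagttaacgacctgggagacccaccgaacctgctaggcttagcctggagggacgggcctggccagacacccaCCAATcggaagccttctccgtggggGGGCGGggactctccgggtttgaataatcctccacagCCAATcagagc
Motifs were counted on both strands in the 250 bases before each annotated start. All 10 genes had a window, and the 10 genes had 14 windows together. CCAAT was in 33.9% of the 32851 windows of all genes. The Hmgb2 window held 4 copies and the Hmgb3 window 3 copies, and of the Hmgb1 windows 1 held 3 copies and the other 0. The upstream Suv39h1 window held 2 copies and the Setdb1 window 1, whereas the windows of Ehmt1, Ehmt2, Suv39h2, Hmga1 and Hmga2 held 0. GGGCGG was in 32.7% of all windows and in at least 1 window of each of the 10 genes. By window, all of the 14 held it but the Hmgb1 window with 3 CCAAT copies. The GC content of the 14 windows ran from 51.6% to 84.0%, against a median of 52.4% over all windows. The part of GC content in these matches was not tested. TATAAA, likewise on either strand, was in 12.4% of all windows and in 0 of the 14. The capitals of these motifs do not overlap in the printed stretches, and a match describes the letters only.

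Of the 18 probes, 8 were detected on all 8 arrays at a detection p under 0.05 and 7 on none. A probe was kept for testing when at least 4 of the 8 arrays detected it, whatever their group. Detection on the 4 arrays of 1 group was enough. This kept 10 probes from 7 of the 10 genes. Ypel5 itself was read by 1 probe that 0 of the 8 arrays detected (4.70 ± 0.095 after the scrambled and 4.78 ± 0.10 after the Ypel5 siRNA on the normalized log2 scale, SD, n = 4 each). The arrays therefore do not show whether its mRNA was lowered, and directions below are those of the arrays as labelled. Each array detected between 11249 and 11612 probes. Scrambled siRNA arrays had a median intensity of 189.2 ± 6.26 and Ypel5 siRNA arrays one of 209.5 ± 14.6 (SD over 4 arrays each). An exact two-sided permutation test gave p = 0.0857, with 0.0286 as the smallest it can give. Of 12 macrophage marker genes 8 were detected on all 8 arrays and 2 (Cybb and Msr1) on none. All 4 B cell and all 5 fibroblast markers on the array were detected on no array, as were 3 of 5 T cell and 3 of 4 epithelial markers. In the limma fit 0 of these markers passed an adjusted p of 0.05. Of the 8 kept macrophage markers 2 had an unadjusted p under 0.05, beside 2229 of all 11364 kept probes. Of 6 osteoclast markers, a fate that RAW264.7 cells can take, 4 were kept, 0 passed and 2 had an unadjusted p under 0.05. Ctsk, a protease of osteoclasts, had a difference of log2 -0.68 (limma adjusted p = 0.146, detected on 4 scrambled and 2 Ypel5 siRNA arrays), and Dcstamp, a fusion protein, one of log2 -0.24 (limma adjusted p = 0.171). Oscar and Acp5 had log2 0.35 and 0.14, and Calcr and Mmp9 were detected on no array. Their part in the differences below was not tested.

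**Figure D1:**
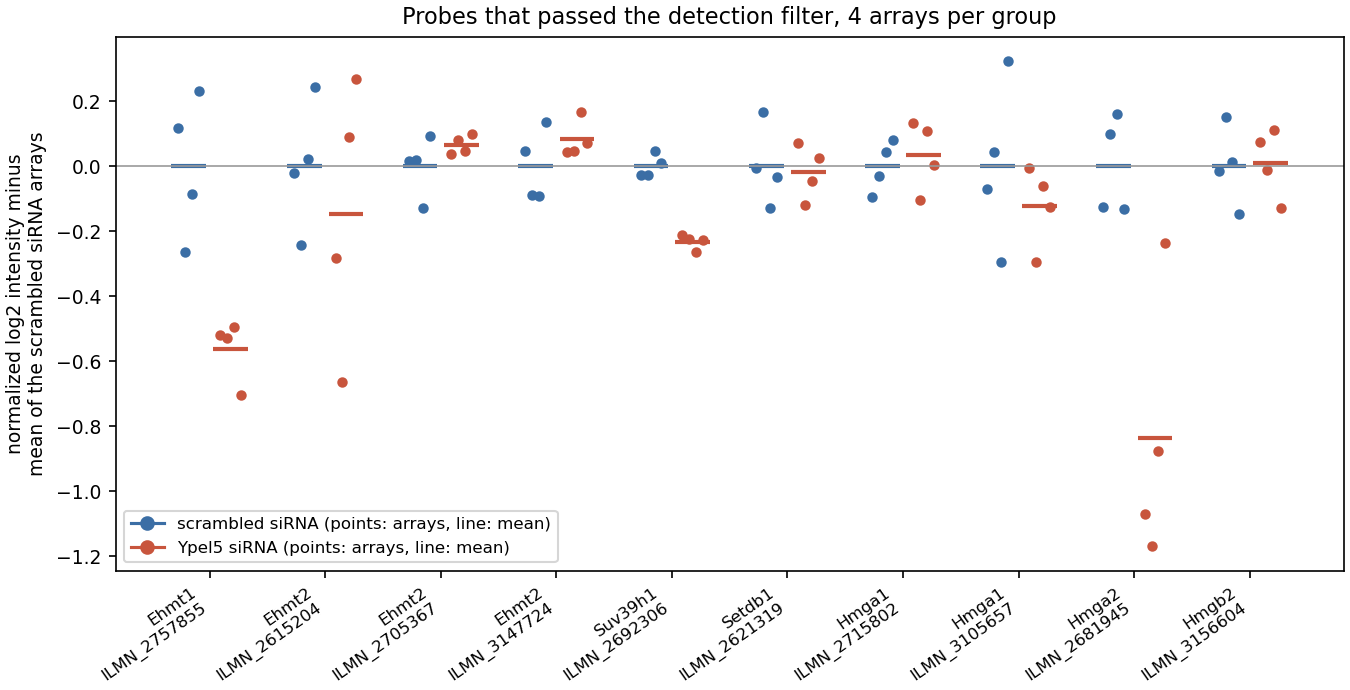
Normalized log2 intensity of the 10 kept probes as the difference from the mean of the scrambled siRNA arrays (vertical axis), for 4 scrambled (blue) and 4 Ypel5 siRNA arrays (red); points are arrays and short lines are group means. All 4 Ypel5 siRNA arrays lay below all 4 scrambled arrays for Ehmt1, Suv39h1 and Hmga2, and the groups overlapped for the other 7 probes.

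Among the 8 genes not chosen for their own change, Suv39h1 fell after the Ypel5 siRNA. Its only probe, ILMN_2692306, read 9.29, 9.29, 9.36 and 9.33 in normalized log2 intensity on scrambled siRNA replicates 1 to 4. On Ypel5 siRNA replicates 1 to 4 it read 9.10, 9.09, 9.05 and 9.09. All 4 arrays of the Ypel5 siRNA lay below all 4 scrambled ones, and the spread within each group was small against the gap. That spread was also small against other probes, since those detected on all 8 arrays had a median within-group SD of log2 0.113. Of all kept probes 17.3% had a larger absolute difference than this one. The means were 9.32 ± 0.036 and 9.08 ± 0.022 (SD, n = 4 each), so the level fell by 0.23 on the log2 scale, or 1.17-fold (SE 0.046, 95% interval -0.34 to -0.13, limma adjusted p = 0.0328). The call was lost whichever of the 8 arrays was left out, with limma adjusted p between 0.0677 and 0.0866 and a log2 difference between -0.24 and -0.22. It was also lost with the replicate number as a block and with arrays averaged by source-name number (log2 -0.22, limma adjusted p = 0.317).

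These other genes had 8 kept probes from 5 genes, of which 1 (Suv39h1) was called lower and 0 higher. Over all 11364 kept probes 1.45% were called lower (165) and 2.25% higher (256), 3.70% in all, so 1 call among 8 probes is too few to set against the background. Of the 8 probes 4 lay below 0 and 4 above. Of the same 8 probes 1 (Suv39h1) had groups that did not overlap, near the 14.0% of all kept probes (1589). The groups of Hmga2 and Ehmt1 did not overlap either, but these genes were chosen for their falls and are left out of that comparison. When arrays were set to a common median instead of quantile normalized, 378 probes were called lower and 246 higher, so that 60.6% of calls were lower instead of 39.2%.

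**Figure D2:**
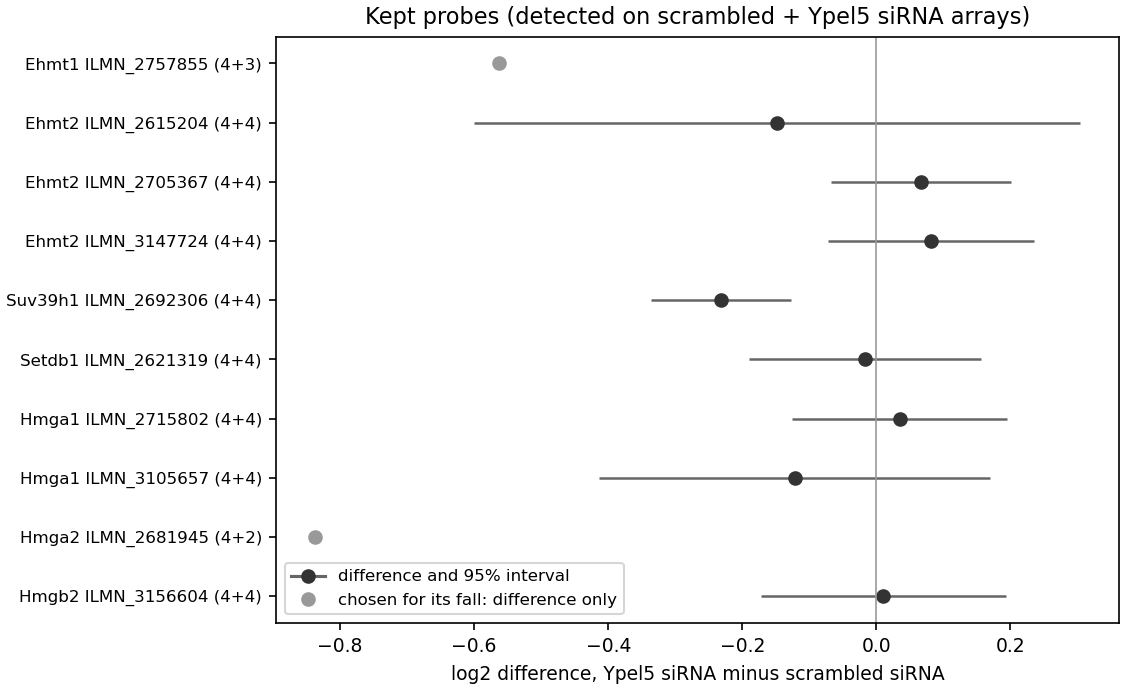
Log2 difference, Ypel5 siRNA minus scrambled siRNA (horizontal axis, 4 arrays per group), of the 10 kept probes; black points carry a 95% interval, grey points (Hmga2 and Ehmt1, chosen for their falls) carry none, and labels give the scrambled plus Ypel5 siRNA arrays that detected the probe. Among the 8 black points the interval of Suv39h1 lies below 0 and those of the other 7 include 0.

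Ehmt1, the GLP subunit, was chosen for its fall. Its kept probe, ILMN_2757855, read 6.41, 6.02, 6.20 and 6.52 on scrambled siRNA replicates 1 to 4 and 5.77, 5.76, 5.79 and 5.58 on the Ypel5 siRNA replicates. The groups did not overlap, and the smallest gap lay between scrambled replicate 2 and Ypel5 siRNA replicate 3. The means were 6.29 ± 0.22 and 5.73 ± 0.096 (SD, n = 4 each), a difference of log2 -0.56. The probe is dim: it was detected on 4 of 4 scrambled and 3 of 4 Ypel5 siRNA arrays. The scrambled arrays were enough by themselves to take it past the filter, and the Ypel5 siRNA arrays were not. Of all kept probes 0.334% had a lower difference, a place that the choice of the gene for its fall fixed in advance and that supports nothing. The second Ehmt1 probe, ILMN_2633604, was detected on 0 of the 8 arrays and gives no fold.

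Ehmt2, the G9a partner of Ehmt1, had 3 kept probes, and 0 of them passed the test. Probe ILMN_2705367 read 10.70, 10.71, 10.56 and 10.78 after the scrambled and 10.73, 10.77, 10.74 and 10.79 after the Ypel5 siRNA. Its difference was log2 0.07 (SE 0.059, 95% interval -0.07 to 0.20, limma adjusted p = 0.597). Probe ILMN_3147724 read 10.63, 10.50, 10.50 and 10.72 against 10.63, 10.63, 10.75 and 10.66, a difference of log2 0.08 (SE 0.067, 95% interval -0.07 to 0.24, limma adjusted p = 0.556). The groups overlapped for both probes, and both intervals leave out a fall of the size seen for Suv39h1. The third probe, ILMN_2615204, was dim and read 6.42, 6.20, 6.46 and 6.68 against 6.16, 5.78, 6.53 and 6.71. Its difference was log2 -0.15 with a wide interval (95% interval -0.60 to 0.30, limma adjusted p = 0.738), and it turned to log2 0.02 without Ypel5 siRNA replicate 2.

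Setdb1, read by ILMN_2621319, had 9.32, 9.49, 9.20 and 9.29 after the scrambled and 9.40, 9.21, 9.28 and 9.35 after the Ypel5 siRNA. The groups overlapped throughout, with a difference of log2 -0.02 (SE 0.075, 95% interval -0.19 to 0.16, limma adjusted p = 0.934). Suv39h2, the paralog of Suv39h1, had 3 probes that were each detected on 0 of 4 arrays in both groups. No fold is given for it, and a probe near background does not show that its gene is silent.

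Hmga2, an AT-hook protein known as an oncofetal gene and a target of let-7 microRNAs, was chosen for its fall. Its kept probe, ILMN_2681945, read 6.45, 6.67, 6.74 and 6.45 in normalized log2 intensity on scrambled siRNA replicates 1 to 4. It read 5.51, 5.41, 5.70 and 6.34 on Ypel5 siRNA replicates 1 to 4. The groups did not overlap, but Ypel5 siRNA replicate 4 lay close to the scrambled arrays and apart from its own group. The means were 6.58 ± 0.15 and 5.74 ± 0.42 (SD, n = 4 each), a difference of log2 -0.84. Without Ypel5 siRNA replicate 4 the difference was log2 -1.03, and without Ypel5 siRNA replicate 2 it was log2 -0.73. The probe was detected on 4 of 4 scrambled and 2 of 4 Ypel5 siRNA arrays, with detection p-values of 0.06, 0.0664, 0.0388 and 0.00376 in the latter. For this probe too the scrambled arrays were enough by themselves to pass the filter, and the Ypel5 siRNA arrays were not. Since 2 of the Ypel5 siRNA values are not above background no fold is given. The second Hmga2 probe, ILMN_2743802, was detected on 0 of 8 arrays and gives no fold.

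Hmga1, the other AT-hook gene, had 2 kept probes of 3, and neither passed. Probe ILMN_2715802 read 13.64, 13.71, 13.78 and 13.82 against 13.87, 13.63, 13.84 and 13.74, with overlapping groups. Its difference was log2 0.04 (SE 0.070, 95% interval -0.13 to 0.20, limma adjusted p = 0.832), and its sign turned (log2 -0.11) with only a common median per array. Probe ILMN_3105657 read 8.32, 8.43, 8.10 and 8.71 against 8.39, 8.10, 8.33 and 8.26, also overlapping. Its difference was log2 -0.12 (SE 0.13, 95% interval -0.41 to 0.17, limma adjusted p = 0.659). The RefSeq table also lists Hmga1b, which these probes may read too.

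Hmgb2, an HMG-box protein of dividing cells, was read by ILMN_3156604 at 13.01, 13.17, 13.03 and 12.87 after the scrambled and 13.09, 13.01, 13.13 and 12.89 after the Ypel5 siRNA. The groups overlapped throughout, with a difference of log2 0.01 (SE 0.080, 95% interval -0.17 to 0.19, limma adjusted p = 0.962) that became log2 -0.10 with only a common median per array. Hmgb1 was read by a single probe, ILMN_1242911, detected on scrambled siRNA replicate 3 and on none of the other 7 arrays. It read 5.05, 5.05, 5.60 and 5.14 against 5.50, 5.05, 5.18 and 5.12. These values lie at the background, so the array gives no fold for Hmgb1. The same table lists 13 pseudogenes named after Hmgb1. Hmgb3 had 1 probe, detected on 0 of 8 arrays.

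The intensities as deposited show the 3 lower probes against the brightness of each array. Suv39h1 read 741, 752, 708 and 769 on the scrambled and 872, 733, 668 and 798 on the Ypel5 siRNA arrays. Hmga2 read 237, 258, 242 and 244 against 239, 209, 210 and 274. Ehmt1 read 235, 222, 214 and 248 against 252, 223, 214 and 234. Before normalization, then, the groups overlapped for all 3 probes. Divided by the median of its own array, Suv39h1 read 3.92 ± 0.039 against 3.66 ± 0.17 (SD, n = 4 each). The same ratio was 1.30 ± 0.044 against 1.11 ± 0.10 for Hmga2 and 1.21 ± 0.061 against 1.10 ± 0.018 for Ehmt1. The 3 differences are thus relative to the other probes of an array. Background, inferred per array from the detection p-values, was 172.7 ± 5.52 on scrambled and 189.9 ± 12.8 on Ypel5 siRNA arrays (SD over 4 arrays each, exact permutation p = 0.0857), and its part in the result was not tested. The Ehmt2 probe ILMN_3147724 showed the opposite pattern, with groups that did not overlap in intensity (1594 ± 160.5 against 1931 ± 154.6, SD, n = 4 each) and did after normalization.

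**Figure D3:**
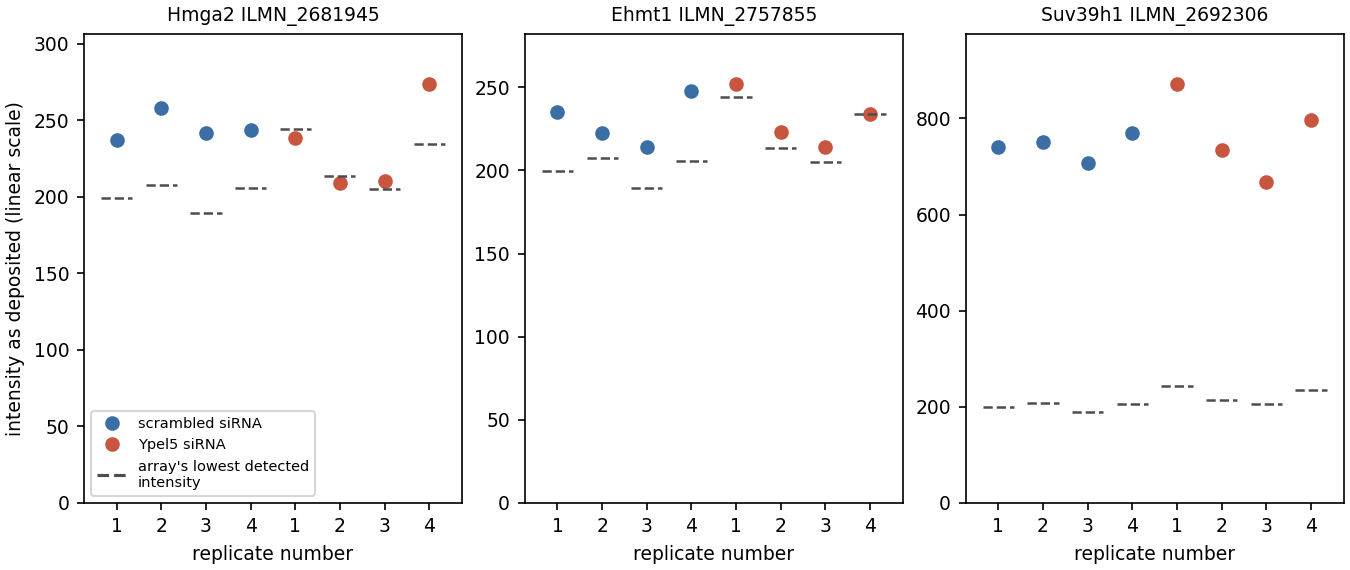
Intensity as deposited, on a linear scale from 0, for Hmga2, Ehmt1 and Suv39h1 on each array (horizontal axis: replicate number; blue, scrambled siRNA; red, Ypel5 siRNA), with a dashed line at the lowest intensity that the array called detected. Hmga2 and Ehmt1 lie near that line and Suv39h1 far above it, and the groups overlap in all 3 panels.

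Without background correction the log2 differences shrank to -0.25 for Hmga2 and -0.16 for Ehmt1, and to -0.18 for Suv39h1. With background correction the same differences were -0.84, -0.56 and -0.23. The Hmga2 and Ehmt1 values thus depend strongly on how the background near them is treated. In every setting that gave a value the 3 differences stayed below 0 (Hmga2 and Ehmt1 have none where detection on all 8 arrays was required, nor Ehmt1 where a detection p under 0.01 was). Over them Hmga2 ranged from log2 -1.03 to -0.25, Ehmt1 from -0.65 to -0.16 and Suv39h1 from -0.25 to -0.18. Hmga2 and Ehmt1 were chosen on these same arrays, so their signs across settings support nothing.

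**Figure D4:**
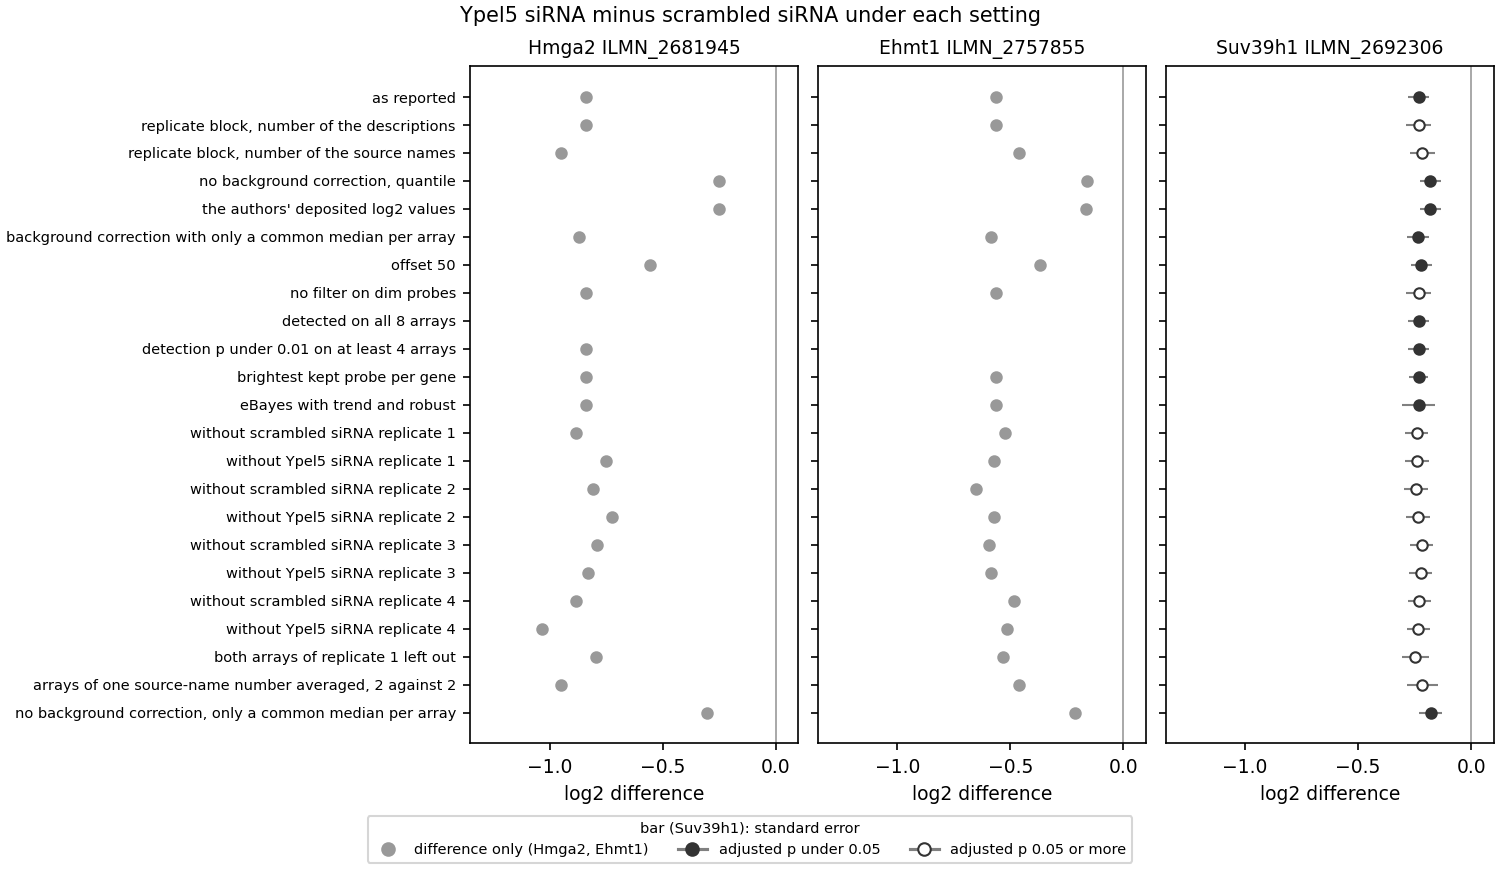
Log2 difference, Ypel5 siRNA minus scrambled siRNA, of the Hmga2, Ehmt1 and Suv39h1 probes under each processing setting, with the standard error as a bar for Suv39h1; there, filled points have a limma adjusted p under 0.05 and open points do not, and the grey points of Hmga2 and Ehmt1 show the difference alone. All points lie left of 0. Within their own panels, the Hmga2 and Ehmt1 points without background correction and with the authors' values lie closest to it.

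Genes that work with these enzymes and HMG proteins were read by their brightest kept probe, from lists chosen with earlier results known. Among 8154 genes so read, 1.46% were called lower and 2.50% higher, 3.96% in all, and the median difference was log2 0.0009. In the same fit 2229 of all 11364 kept probes had an unadjusted p under 0.05. The counts of such genes in each list are to be read beside that share. Of 27 partners, readers and erasers of H3K9 methylation 24 were on the array and 19 were kept. Among the kept genes 0 were called in either direction, and 3 had an unadjusted p under 0.05. Their median difference was log2 0.02. Atf7ip, a cofactor of Setdb1, had 9.15 ± 0.17 against 9.52 ± 0.090 (SD, n = 4 each), a difference of log2 0.37 (SE 0.090, limma adjusted p = 0.0631). The H3K9 demethylases Kdm4c, Kdm4b and Kdm3a had differences of log2 0.14, 0.16 and 0.12 (limma adjusted p = 0.204, 0.216 and 0.277).

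Of 28 genes listed under other histone lysine methyltransferases, not all of them such enzymes, 22 were on the array. Of these 19 were kept and 0 were called, with 1 at an unadjusted p under 0.05 and a median of log2 0.02. The H3K4 methyltransferase Setd1b had log2 0.14 (limma adjusted p = 0.201) and Suz12, a subunit of the H3K27 methyltransferase complex, log2 0.12 (limma adjusted p = 0.259). Kmt2b, another H3K4 enzyme, had log2 -0.15 (limma adjusted p = 0.361) and Setd3 log2 0.14 (limma adjusted p = 0.465). Of 24 other HMG genes 21 were on the array, 16 were kept and 0 called, with 1 at an unadjusted p under 0.05 and a median of log2 -0.004. The nucleosome-binding Hmgn5 had log2 -0.19 (limma adjusted p = 0.194). Pbrm1 and Smarce1, both of SWI/SNF remodelling complexes, had log2 0.14 and -0.10, and Hmg20b had log2 -0.11 (limma adjusted p = 0.380, 0.387 and 0.455).

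Of 9 genes linked to let-7 and Hmga2, 8 were on the array and 4 were kept. Of the kept genes 3 lay below 0 and 0 were called, with 1 at an unadjusted p under 0.05 and a median of log2 -0.13. Igf2bp2, an mRNA-binding protein known as a target of Hmga2, had 9.97 ± 0.11 against 9.72 ± 0.095 (SD, n = 4 each), a difference of log2 -0.25 (SE 0.075, limma adjusted p = 0.110). Arid3a had log2 -0.16, Igf2bp3 log2 -0.09 and Dis3l2 log2 0.03 (limma adjusted p = 0.379, 0.493 and 0.911).

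Of 11 receptor and signalling genes for extracellular Hmgb1, 10 were on the array and 7 were kept. Of these 2 were called higher and 0 lower, beside 2.50% and 1.46% of all genes by brightest kept probe. An unadjusted p under 0.05 was seen for 3 of the 7. The kept genes had a median of log2 0.15. Tlr2 rose from 13.14 ± 0.043 to 13.47 ± 0.052 (SD, n = 4 each), a difference of log2 0.33 (SE 0.051, limma adjusted p = 0.0141). Tlr4 rose from 8.97 ± 0.068 to 9.36 ± 0.077, a difference of log2 0.39 (SE 0.060, limma adjusted p = 0.0141). Both are receptors of microbial products, and both were known from the earlier results of these arrays. Their values are therefore a description, and the count of calls in this list supports nothing about Hmgb1 signalling. With the replicate number of the descriptions as a block, or with arrays averaged by source-name number, 0 of this list were called. With the source-name number as a block 1 was called. The chemokine receptor Cxcr4 had log2 0.40 (limma adjusted p = 0.117) and the adaptor Myd88 log2 0.12 (limma adjusted p = 0.311).

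Of 29 proliferation genes, listed because Hmgb2 is known from dividing cells, 25 were on the array and 23 were kept. Among the kept genes 0 were called or had an unadjusted p under 0.05. Their median was log2 0.003. Top2a, the topoisomerase of dividing cells, had log2 -0.10 and Birc5, a mitotic protein, log2 -0.09 (limma adjusted p = 0.381 and 0.423). Rrm2, which makes deoxyribonucleotides, had log2 -0.10 and Mcm2, of the replicative helicase, log2 0.07 (limma adjusted p = 0.433 and 0.457). In bulk RNA fewer cells of a type and less RNA per cell cannot be told apart.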

How the data were processed

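Total RNA of 8 samples was read on Illumina bead arrays, 1 slide by their titles. The authors' deposited non-normalized table, per the file headers, gives an intensity and a detection p-value for each of 25697 probes and 8 arrays. The detection p-value takes 101 levels on both replicate 1 arrays and 749 to 762 on the others. The authors also deposited normalized log2 values, used as an alternative. Per the submitters' processing notes RMA was used, with its version not given in the sources used here.

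The source names gave the groups, and the descriptions the replicate numbers, which conflict with the numbers in the source names. Intensities were background corrected (normexp, controls inferred from detection p-values), given an offset of 16, log2-transformed and quantile normalized in limma 3.58.1 (R 4.3.3). Probes detected at p under 0.05 on at least 4 arrays were kept and tested with lmFit and eBayes without a block, two-sided, with Benjamini-Hochberg adjustment over all 11364; probes outside the filter get no difference. The code was tested on simulated data. The labels do not say what a number stands for, so the numbers were not taken as pairs. Same-numbered arrays correlated in their deviations by 0.0416, 0.0046, 0.0035 and 0.162 (numbers 1 to 4). For scrambled arrays 1 and 4 the best-correlated Ypel5 siRNA array had the same number, and for 2 and 3 it did not. Whether a number marks a shared factor was not tested.

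The genes and lists were chosen with earlier results of these data known. Named are all 10 genes with every probe, Ypel5, the targeted gene, and of each list up to 4 genes with the smallest p and any called gene where 5 or fewer were called. Gene symbols were updated through a RefSeq table (20734 current, 3875 through a synonym, 1088 kept as in the file). Promoter windows are from RefSeq on GRCm38.p6. Alternatives covered background, normalization, offset, filter, probes per gene, variance model, block and arrays included. An exact permutation test per probe was also run. The number of arrays limits the precision.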

Additional observations from a re-analysis of the deposited data

Results flagged for a closer look

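Of 40 groups of 4 arrays (the 18 probes, the median intensity and the number of detected probes, each in both siRNA groups), 3 held an array whose gap to its nearest neighbour was large against the range of its group. Chance gives this in about 1 group in 20. In the kept Ehmt1 probe, ILMN_2757855, Ypel5 siRNA replicate 4 was lowest at log2 5.58, with a gap over range of 0.833. In the other Ehmt1 probe, ILMN_2633604, detected on no array, Ypel5 siRNA replicate 1 was highest at 5.26 (gap over range 0.869). In the Hmgb1 probe, ILMN_1242911, scrambled siRNA replicate 3 was highest at 5.60 (gap over range 0.831), and this is the array that detected it.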

How the results depend on the processing

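Against 165 lower and 256 higher probes, the replicate block by description gave 22 and 82, the replicate block by source name 31 and 90, no background correction 342 and 444, the authors' deposited values 342 and 445, no filter 28 and 130, eBayes with trend and robust 407 and 498, and leaving out both arrays of replicate 1 gave 10 and 52. Background correction with only a common median gave 378 lower and 246 higher, with the median of all probes at log2 -0.045. A setting chosen after seeing the data, no background correction with only a common median, gave 830 lower and 357 higher (69.9% lower). Another such setting, arrays averaged by source-name number (2 against 2), gave 0 lower and 0 higher in limma, with 1554 at an unadjusted p under 0.05. Leaving out 1 array gave 39 to 84 lower and 132 to 177 higher. Of the 8 kept probes of genes not chosen for their own change, 1 (Suv39h1) was called lower, beside 1.45% of all kept probes. Counts that take in Hmga2 and Ehmt1 are left out, since both were chosen for their falls. Suv39h1 was not called with either replicate block, with averaged arrays, without the filter or without both replicate 1 arrays. Leaving out any 1 array also lost the call. It was called with detection on all 8 arrays, the stricter detection p, offset 50, and the brightest probe or the mean of probes per gene. The call also held with the authors' values, with trend and robust (limma adjusted p = 0.0492), and with a common median or no background correction, alone or together. With the blocks the limma adjusted p of Suv39h1 was 0.123 and 0.129, and over its 22 alternatives it ranged from 0.0217 to 0.317. The fit averaging a gene's kept probes gave log2 -0.043 for Hmga1, whose probe ILMN_2715802 had -0.11 and -0.085 with a common median (with and without background correction) and -0.030 without both replicate 1 arrays. Hmgb2 gave log2 -0.10 and -0.079 with a common median, -0.018 with the source-name replicate block or averaged arrays and -0.015 without both replicate 1 arrays. With 1 array left out, Hmgb2 ranged from log2 -0.039 to 0.060, Setdb1 from -0.060 to 0.038 and Ehmt2 probe ILMN_2615204 from -0.29 to 0.025. Signs thus turned for 4 probes (these 3 and Hmga1), and the cause was not tested. Tlr2 and Tlr4 were both called except with the description block (0), the source-name block (1), no filter (1), averaged arrays (0) and both replicate 1 arrays left out (0). Both were known from the earlier results, so these calls support nothing. Over the 23 alternatives 1 gene of the H3K9 partners was called higher in 8, 1 of the let-7 list lower in 4, and 2 of the other HMG genes lower in 1 (no background correction, common median). Probes detected on 4 to 7 arrays had a median within-group SD of log2 0.322, against 0.113 for those on all 8, which limits what dim probes such as Hmga2 and Ehmt1 can show.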
